A study of Homo sapiens with 9 samples.

Results

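The 8 core genes of non-homologous end joining, XRCC5, XRCC6, PRKDC, LIG4, XRCC4, NHEJ1, PAXX and DCLRE1C, were followed in RNA of U2OS cells, a human osteosarcoma line. They were chosen by symbol, and all 8 were found among the 44608 entries of every count table. All 8 were also among the 14815 genes that passed the filter on low counts. There were 3 groups of 3 libraries each, transfected with a control siRNA that silences nothing (siNS), with siRNA against NFKB2 (siNFKB2) or with siRNA against RELB (siRELB). Each siRNA was used at 75 nM in the parental line, with RNA taken after 48 h and selected on oligo-dT. NFKB2 and RELB encode the paired subunits of non-canonical NF-kB, and the comparisons asked which transcripts differ when either is depleted. Replicates carry numbers, and nothing in the labels calls them separate cultures, so the spread behind each p-value may be technical.

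Non-homologous end joining rejoins broken DNA ends without a matching template and can act throughout the cell cycle. The Ku heterodimer, made of the products of XRCC5 and XRCC6, slides onto the ends and recruits the large kinase encoded by PRKDC. The nuclease encoded by DCLRE1C trims ends that cannot be joined directly, and DNA ligase IV (LIG4), held and stabilised by XRCC4, seals them with the help of the structurally related scaffolds NHEJ1 and PAXX.

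Total counts ranged from 15011789 to 19279572 per library. In siNFKB2 replicates 1 to 3, NFKB2 remained at 4.86%, 21.1% and 44.8% of its siNS mean, and RELB at 9.79%, 17.1% and 19.7% in siRELB. Of 6 mesenchymal markers, VIM, SPARC and COL1A1 were between 518 and 3220 counts per 1000000 (CPM, on library sizes scaled by the trimmed mean of M values) in all 9 libraries, whereas COL1A2 was at 0.483 to 1.15 CPM. The summed mesenchymal markers were at 4513 to 5914 CPM in siNS, 4194 to 4500 CPM in siNFKB2 and 4225 to 5231 CPM in siRELB. In siNFKB2 RUNX2, COL1A1 and COL1A2 fell and ALPL rose, and none of the 6 was called in siRELB. The lymphocyte marker CD3E had no count, which at a limit of 3 counts allows up to 0.199 CPM in the shallowest library. The 6 blood markers summed to between 5.80 and 8.05 CPM, the 4 epithelial markers to between 3.10 and 6.61 CPM and the 3 endothelial markers to between 1.16 and 2.05 CPM. ITGAM and CDH1 rose and HBB fell in siNFKB2, and CDH1 rose in siRELB, and the part of these markers in the members' values was not tested. Mitochondrial rRNA took between 0.379% and 2.68% of counts, with the highest share in siNFKB2 replicate 3. The replicate 1 library of each group stood apart from the others of its group in a pattern that followed transcript GC content, given with the members it touches. In bulk RNA, fewer cells with a transcript and less of it per cell cannot be told apart.

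The promoters of the joining factors are shown because XRCC4 and NHEJ1 were both lower in siNFKB2 while XRCC6 was not. RefSeq windows on GRCh38.p14, from 250 bases before to 50 after a start site, were available for 6 of the 8 members, in 12 windows. XRCC5 and PRKDC were not matched. Capitals mark matches on either strand to the NF-kB consensus, to an E2F word (TTTCCCGC, TTTCGCGC, TTTGCCGC or TTTGGCGC), to the NRF1 palindrome or to the ETS word CCGGAAG. The windows of NHEJ1 (chr2:219160766-219161065, minus strand), XRCC4 (chr5:83077297-83077596, plus strand) and XRCC6 (chr22:41621045-41621344, plus strand) read as follows, 5′ to 3′.
NHEJ1: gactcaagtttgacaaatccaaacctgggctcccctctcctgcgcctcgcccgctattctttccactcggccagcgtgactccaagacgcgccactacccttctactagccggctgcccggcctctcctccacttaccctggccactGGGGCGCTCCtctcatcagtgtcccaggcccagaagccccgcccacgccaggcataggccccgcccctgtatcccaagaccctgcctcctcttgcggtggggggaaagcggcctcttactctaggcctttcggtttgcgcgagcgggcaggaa
XRCC4: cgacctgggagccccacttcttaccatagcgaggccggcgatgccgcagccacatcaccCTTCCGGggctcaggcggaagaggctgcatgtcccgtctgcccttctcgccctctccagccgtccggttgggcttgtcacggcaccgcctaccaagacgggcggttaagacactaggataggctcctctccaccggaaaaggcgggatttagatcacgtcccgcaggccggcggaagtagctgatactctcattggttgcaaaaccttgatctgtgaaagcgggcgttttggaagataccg
XRCC6: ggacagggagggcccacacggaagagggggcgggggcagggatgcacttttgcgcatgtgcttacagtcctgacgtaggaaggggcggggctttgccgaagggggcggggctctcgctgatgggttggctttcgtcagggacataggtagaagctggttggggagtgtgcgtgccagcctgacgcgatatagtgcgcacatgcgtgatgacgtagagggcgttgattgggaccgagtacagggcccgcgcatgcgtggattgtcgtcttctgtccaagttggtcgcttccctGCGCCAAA

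The printed NHEJ1 window held the only NF-kB match among the 12 member windows, and such a match was in 11.3% of all 35116 promoter windows. NHEJ1 has 2 windows in the table, and the other (chr2:219160506-219160805, minus strand), which overlaps the printed window, held none. The XRCC6 window held the only E2F match, against 3.31% of all windows. An ETS match was in 7 of the 12 windows, those of XRCC4, PAXX, 1 of DCLRE1C and 4 of LIG4, against 10.3% of all windows. Several LIG4 windows overlap one another, so these are not separate sites. The NRF1 palindrome was in none of the 12, against 1.24% of all windows. The NF-Y word CCAAT was in 6 and the SP1 word GGGCGG in 9, against 34.6% and 45%. A match describes letters in a window, not binding.

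Levels of different genes were compared per length, as CPM divided by the kilobases of the main GENCODE 29 transcript. In siNS the Ku genes led, with XRCC6 at 286 ± 5.77 and XRCC5 at 179 ± 10.8 CPM per kb (SD, n = 3). PRKDC followed at 50.9 ± 11.6, XRCC4 at 41.0 ± 6.15 and PAXX at 35.1 ± 16.01 CPM per kb, and the ranges of these 3 genes overlapped. DCLRE1C at 12.1 ± 1.14 and NHEJ1 at 11.4 ± 0.526 CPM per kb also overlapped. LIG4, the only ligase of this pathway, was lowest at 5.35 ± 1.81 CPM per kb. With the length of all annotated exons in place of the main transcript, DCLRE1C was at 4.49 and LIG4 at 5.10 CPM per kb, so their order depended on the transcript chosen.

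**Figure D1:**
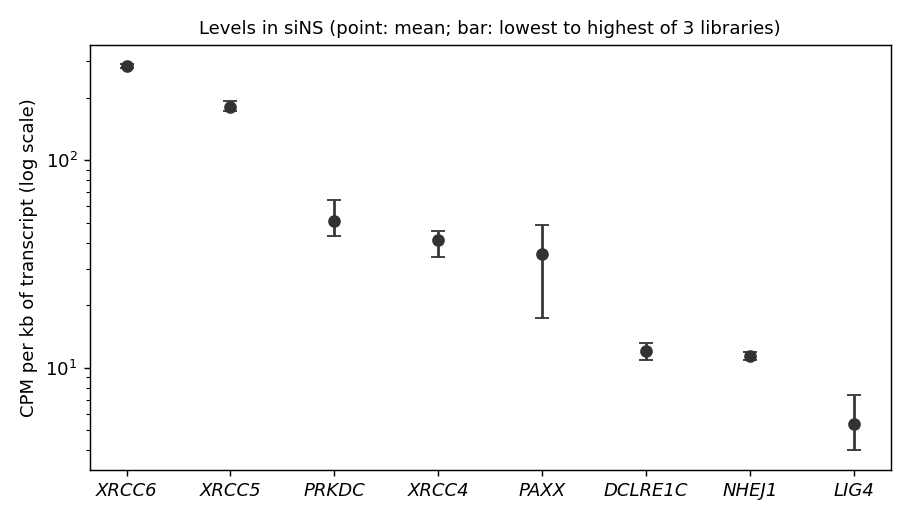
Level of each core end joining gene in siNS, in CPM per kb of the main transcript on a log axis, as the mean of 3 libraries with bars from the lowest to the highest library. XRCC6 and XRCC5 lie above all other members, and LIG4 is lowest at 5.35.

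The comparison of siNFKB2 with siNS asked whether end joining genes move with NFKB2 depletion. XRCC5, XRCC4 and NHEJ1 were lower, and no member was higher. These were 3 of 8 members at an adjusted p below 0.05 in the quasi-likelihood test of edgeR, where 26.1% of all genes tested were called and 13.5% were called lower. At an unadjusted p below 0.05 there were 4, where 38.5% of all genes were. The members' median log2 fold change was -0.33, against -0.0037 over all genes tested. The libraries of both groups did not overlap for the same 3 members, all lower, as for 37.4% of all genes tested (18.6% lower). In a test of any difference among the 3 groups, XRCC5 (adjusted p = 0.00306), XRCC4 (0.0166) and NHEJ1 (0.0395) were called, where 30% of all genes were.

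XRCC5 (chromosome 2, 216107464 to 216206303, plus strand, GRCh38, GENCODE 29) encodes the larger Ku subunit, whose tail contacts the DNA-dependent kinase. In siNS replicates 1 to 3 it was at 722, 651 and 652 CPM, in siNFKB2 at 453, 293 and 291 CPM, and in siRELB at 688, 657 and 647 CPM. Every siNFKB2 library was below every library of the other groups, and replicate 1 was the highest library of each group. The fall from 675 ± 40.7 to 346 ± 92.9 CPM came to -0.97 on the log2 scale, with an SE of 0.163 and an adjusted p of 0.00232. Its 95% interval ran from -1.33 to -0.60. The call held under all 17 alternatives, with log2 values between -1.21 and -0.84 and adjusted p between 3.67e-06 and 0.0146.

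As a share of its siNS mean, XRCC5 stood at 67.1%, 43.5% and 43.1% in siNFKB2 replicates 1 to 3. NFKB2 itself was lowest in replicate 1, so of these 3 libraries the one with the least NFKB2 had the most XRCC5. Replicate 1 had the same place without NFKB2 siRNA. In siNS and siRELB, replicate 1 also had the least NFKB2 (80.7 and 117 CPM) and the most XRCC5 (722 and 688 CPM). With 3 libraries no relation was tested.

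XRCC6 (chromosome 22, 41621119 to 41664048, plus strand) encodes the smaller Ku subunit. It was at 777, 757 and 788 CPM (siNS), 782, 734 and 627 CPM (siNFKB2) and 745, 755 and 723 CPM (siRELB) in replicates 1 to 3. The siNFKB2 libraries overlapped siNS, with replicate 3 below the others. The log2 fold change was -0.11 (SE 0.102, adjusted p = 0.452), with a 95% interval from -0.34 to 0.11, which lies above the estimate for XRCC5.

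Because the Ku subunits act as a pair, their counts were also compared within each library, which does not depend on library scaling. The ratio of XRCC5 to XRCC6 counts was 0.930, 0.861 and 0.827 (replicates 1 to 3 of siNS), 0.579, 0.400 and 0.463 (siNFKB2) and 0.923, 0.870 and 0.895 (siRELB). All siNFKB2 ratios were below all others, whereas siNS and siRELB overlapped. The mean log2 ratio was lower by 0.88 in siNFKB2 than in siNS (log2 difference -0.88, two-sided exact permutation p = 0.1, n = 3). A p of 0.1 is the smallest that 3 libraries against 3 can give. The ratio in siRELB differed from siNS by 0.04 (exact permutation p = 0.5, n = 3). Against siRELB, the siNFKB2 log2 ratio differed by -0.92 (exact permutation p = 0.1, n = 3).

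**Figure D2:**
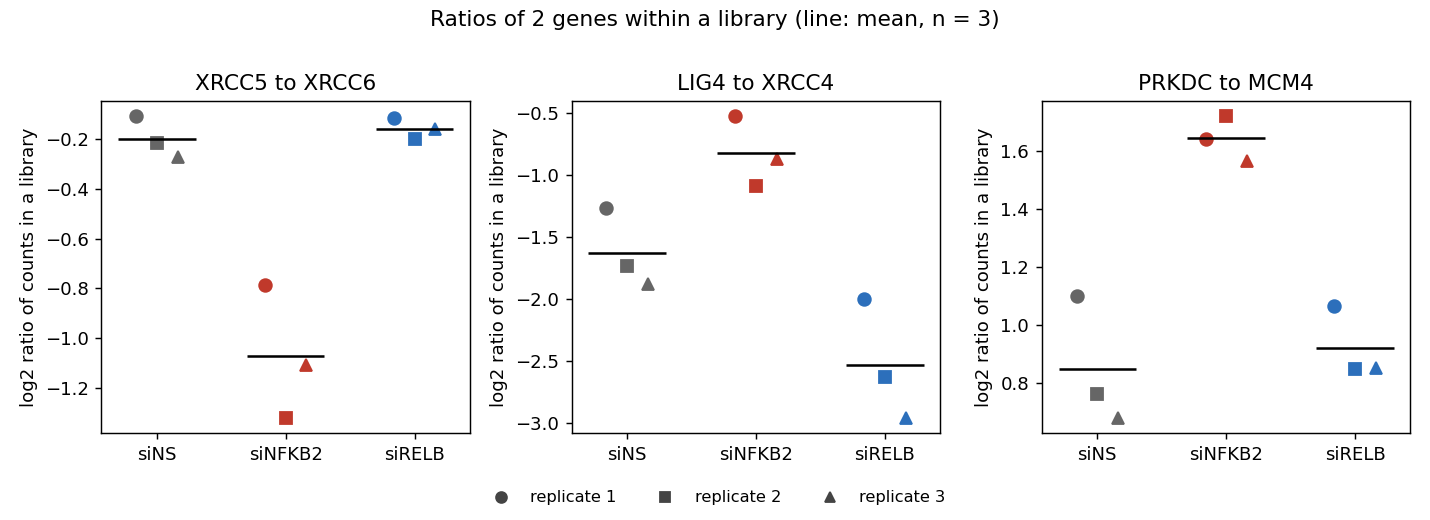
Log2 ratio of the counts of 2 genes within each library, by group, with a line at the mean of 3 libraries; MCM4 is the divergent neighbour of PRKDC. The XRCC5 to XRCC6 ratio is lower in all 3 siNFKB2 libraries, and the LIG4 to XRCC4 ratio separates the 3 groups.

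PRKDC (chromosome 8, 47773108 to 47960183, minus strand) encodes the catalytic subunit of the DNA-dependent kinase, which bridges the Ku-bound ends. It was at 869, 581 and 615 CPM (siNS), 727, 589 and 531 CPM (siNFKB2) and 757, 635 and 624 CPM (siRELB) in replicates 1 to 3. Replicate 1 was the highest library of each group, and all groups overlapped. The log2 fold change in siNFKB2 was -0.16 (SE 0.174, adjusted p = 0.541), and its interval from -0.55 to 0.22 leaves room for a moderate change either way.

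XRCC4 (chromosome 5, 83077498 to 83353787, plus strand) encodes the scaffold that stabilises ligase IV. It was at 74.2, 55.6 and 71.5 CPM (siNS), 53.4, 47.6 and 42.2 CPM (siNFKB2) and 76.3, 74.3 and 70.4 CPM (siRELB) in replicates 1 to 3. All siNFKB2 libraries were below all siNS libraries, with siNS replicate 2 close to siNFKB2 replicate 1. Replicate 1 was the highest library of each group. On the log2 scale the change from 67.1 ± 10.1 to 47.7 ± 5.60 CPM was -0.49 (SE 0.140, adjusted p = 0.0266). The call was lost in 4 of 17 alternatives, at an adjusted p of 0.0735 with only the 6 libraries compared, 0.114 without siNS replicate 3, 0.101 without siNFKB2 replicate 2 and 0.117 without siNFKB2 replicate 3. The range over all alternatives was 0.00610 to 0.117, and the log2 value stayed between -0.61 and -0.41.

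NHEJ1 (chromosome 2, 219075317 to 219160865, minus strand) encodes a scaffold that forms filaments with XRCC4. It was at 25.0, 23.9 and 22.8 CPM (siNS), 20.5, 15.03 and 14.6 CPM (siNFKB2) and 28.2, 24.8 and 21.8 CPM (siRELB) in replicates 1 to 3. The siNFKB2 libraries were below both other groups, and replicate 1 was the highest library of each group. On the log2 scale the change from 23.9 ± 1.10 to 16.7 ± 3.28 CPM was -0.51 (SE 0.163, adjusted p = 0.0410). This call was lost in 8 of 17 alternatives: with only the 6 libraries compared (adjusted p = 0.0781), without siNS replicates 1 (0.0616), 2 (0.0764) or 3 (0.0866), without siNFKB2 replicates 2 (0.155) or 3 (0.140), and without siRELB replicates 2 (0.0678) or 3 (0.0536). Across all 17 its adjusted p lay between 0.00145 and 0.155 and its log2 value between -0.69 and -0.42. In GENCODE 29, 65.4% of the exonic length of NHEJ1 is shared with the same-strand gene AC068946.1, so its count is uncertain.

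XRCC5 was the only member called when siNS replicate 3, siNFKB2 replicate 2 or siNFKB2 replicate 3 was left out, and when the siRELB libraries were kept out of the fit, so that 1 of 8 members was called in these settings. The share of all genes called there was 15.5%, 14.6%, 17.5% and 18.5%, in the same order, so 1 of 8 was near it. Without the 3 libraries numbered 1, XRCC5, XRCC4, NHEJ1 and PAXX were called, where 44.9% of all genes were.

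**Figure D3:**
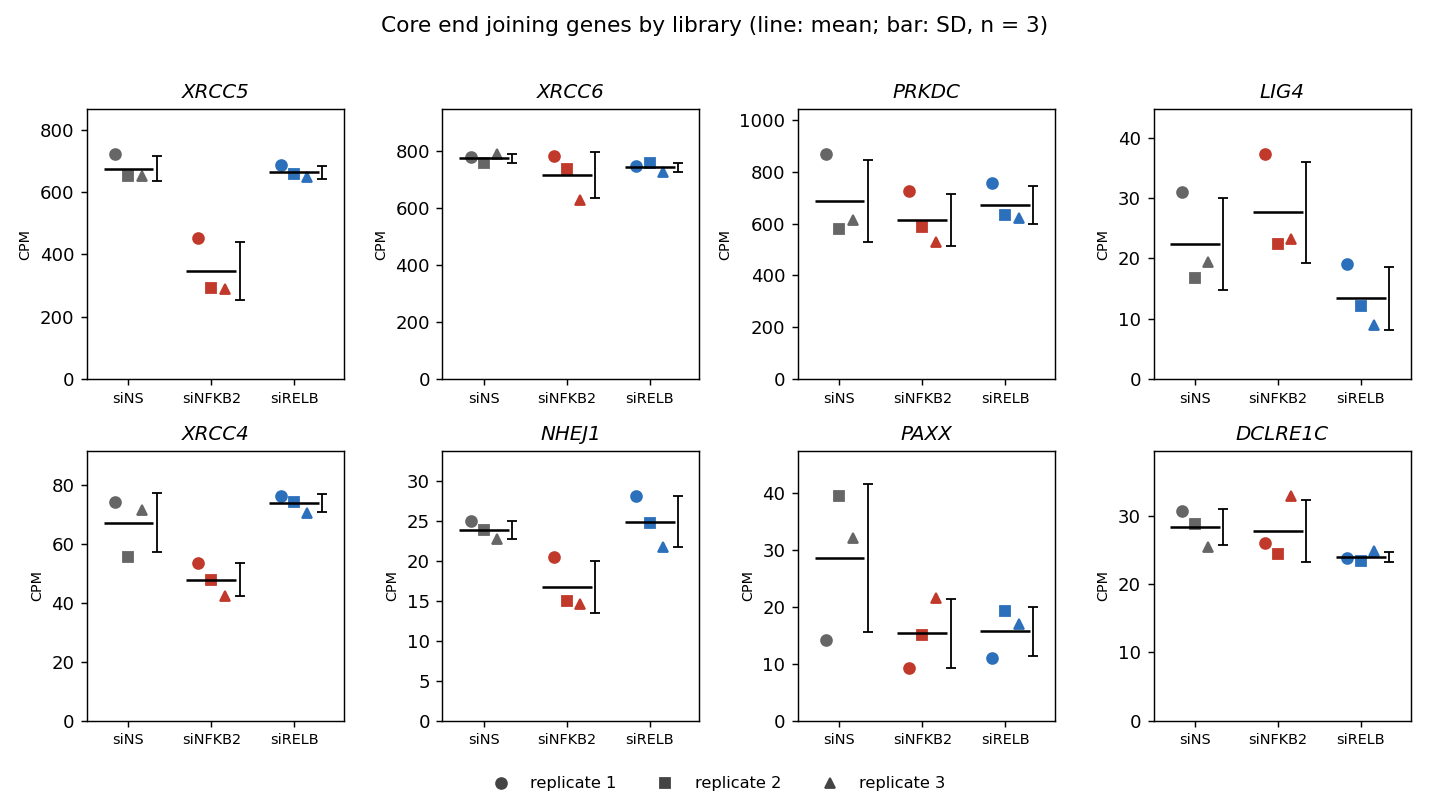
CPM of the 8 core end joining genes in each library, with circles, squares and triangles for replicates 1, 2 and 3, a line at the group mean and a bar for the SD (n = 3). XRCC5, XRCC4 and NHEJ1 are lower in all siNFKB2 libraries than in siNS. Replicate 1 is highest for XRCC5, PRKDC, LIG4, XRCC4 and NHEJ1 and lowest for PAXX in every group.

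LIG4 (chromosome 13, 108207439 to 108218368, minus strand) was at 31.0, 16.7 and 19.4 CPM (siNS), 37.3, 22.5 and 23.2 CPM (siNFKB2) and 19.1, 12.04 and 9.03 CPM (siRELB) in replicates 1 to 3. Replicate 1 was again the highest of each group, and both knockdowns overlapped siNS. The log2 fold change was 0.31 in siNFKB2 (SE 0.317, adjusted p = 0.523), with an interval from -0.40 to 1.01. It was -0.74 in siRELB (SE 0.322, adjusted p = 0.282). The siRELB value passed with the replicate number as a block (log2 -0.75, adjusted p = 0.00659) and without the 3 libraries numbered 1 (-0.78, 0.00577), which were left out only after the data had been seen. Its adjusted p ranged from 0.00577 to 0.598 over the alternatives.

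The ratio of LIG4 to its partner XRCC4 was examined after these values were seen. It was 0.417, 0.300 and 0.272 (replicates 1 to 3 of siNS), 0.698, 0.472 and 0.549 (siNFKB2) and 0.250, 0.162 and 0.128 (siRELB). No group overlapped another. The mean log2 ratio differed from siNS by 0.80 in siNFKB2 and by -0.90 in siRELB (exact permutation p = 0.1 in each, n = 3, the smallest possible).

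PAXX (chromosome 9, 136992418 to 136993984, plus strand), the scaffold that binds Ku, was at 14.1, 39.5 and 31.9 CPM (siNS), 9.29, 15.1 and 21.5 CPM (siNFKB2) and 10.9, 19.2 and 16.9 CPM (siRELB) in replicates 1 to 3. Its lowest library in every group was replicate 1, and siNS overlapped both knockdowns through that library. The log2 fold changes of -0.90 in siNFKB2 (SE 0.390, adjusted p = 0.116) and -0.86 in siRELB (SE 0.388, adjusted p = 0.296) missed the threshold. With the replicate block both passed, at -0.86 (adjusted p = 0.00233) and -0.80 (0.0151). Without siNS replicate 1 both passed as well, at -1.23 (0.0128) and -1.19 (0.0354), as they did without the 3 libraries numbered 1, at -0.97 (0.000835) and -0.98 (0.00246). With no filter the siNFKB2 value passed too (-0.92, adjusted p = 0.0246). The adjusted p ranged from 0.000835 to 0.337 in siNFKB2 and from 0.00246 to 0.639 in siRELB.

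Beside these values, deviations of replicate 1 from its group mean correlated with transcript GC content across 13525 genes at -0.58 in siNS, -0.32 in siNFKB2 and -0.27 in siRELB. They correlated with log2 transcript length at 0.36, 0.23 and 0.27. Genes are not independent replicates, and these are descriptions. The PAXX transcript has 66.1% GC, more than 97.6% of genes, and 812 bases. XRCC4, a called member, has the lowest GC of the 8 at 35.45%, more than 1.66% of genes. LIG4 has 36.2% GC, more than 2.65% of genes, and PRKDC, at 13509 bases, is the longest member. XRCC5 and NHEJ1, also called, have 44.2% and 48.8% GC, more than 33.1% and 51.1% of genes. For both, replicate 1 was the highest library of each group. DCLRE1C has 43.7% GC, more than 30.8% of genes, and its replicate 1 was not the highest in siNFKB2 or siRELB. XRCC6 and PRKDC have 50.7% and 45.3% GC, more than 56.8% and 37.1% of genes. The part of GC content or length in the members' values was not tested.

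DCLRE1C (chromosome 10, 14897359 to 14954432, minus strand), the end-trimming nuclease, was at 30.8, 28.9 and 25.5 CPM (siNS), 26.0, 24.4 and 33.0 CPM (siNFKB2) and 23.9, 23.4 and 24.8 CPM (siRELB) in replicates 1 to 3. The siRELB libraries were narrowly below siNS, while siNFKB2 overlapped both. The log2 fold change was -0.03 in siNFKB2 (SE 0.143, adjusted p = 0.905) and -0.24 in siRELB (SE 0.143, adjusted p = 0.434). Over 2.51% of its exonic length it overlaps SUV39H2 on the opposite strand, and whether counting used strand is not given in the sources used here.

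The comparison of siRELB with siNS called 0 of the 8 members with edgeR and 0 with DESeq2. The share of all genes tested that was called was 2.02% with edgeR (1.21% higher and 0.81% lower) and 6.01% with DESeq2. At an unadjusted p below 0.05 there were 2, LIG4 and PAXX, against 16.8% of all genes. XRCC5 had a log2 fold change of -0.02 with a 95% interval from -0.38 to 0.33. The intervals of XRCC4 (-0.17 to 0.44) and NHEJ1 (-0.30 to 0.42) also spanned 0. The members' median was -0.05, against -0.02 over all genes. Libraries did not overlap for XRCC6 and DCLRE1C, both lower, as for 22.5% of all genes (10.2% lower). The count rose to 2, LIG4 and PAXX, with the replicate block and without the 3 libraries numbered 1, and to 1, PAXX, without siNS replicate 1. In these settings 10.6%, 22.7% and 12% of all genes were called, so the counts without libraries numbered 1 were near the share over all genes.

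**Figure D4:**
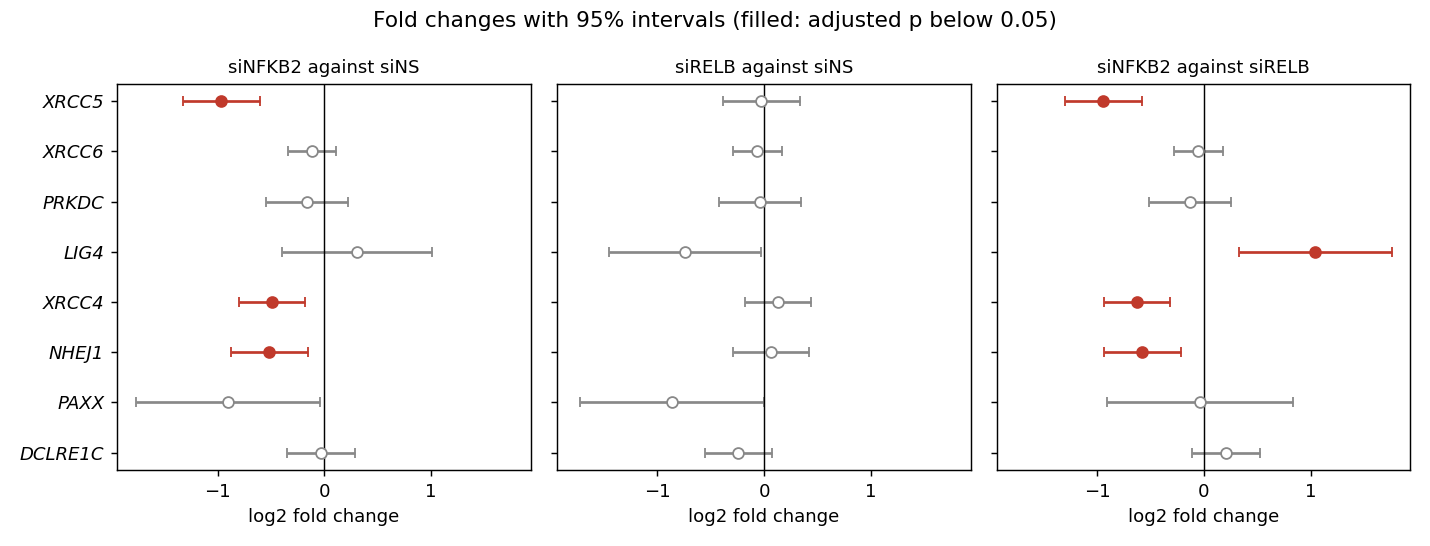
Log2 fold change of each core end joining gene in the 3 comparisons, with 95% intervals from the edgeR fit and filled points at an adjusted p below 0.05. XRCC5, XRCC4 and NHEJ1 are filled in both comparisons of siNFKB2, and no member is filled for siRELB against siNS.

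The knockdowns were then compared directly, which tests whether their effects differ. This comparison shares its siNFKB2 libraries with the first. It called 4 of the 8 members, where 26.6% of all genes tested were called (12.2% higher and 14.3% lower), and 4 at an unadjusted p below 0.05, where 38.9% of all genes were. XRCC5 was lower in siNFKB2 than in siRELB (log2 -0.94, SE 0.163, adjusted p = 0.00263), as were XRCC4 (-0.63, SE 0.140, 0.00920) and NHEJ1 (-0.58, SE 0.163, 0.0254). LIG4 was higher, at 27.6 ± 8.38 against 13.4 ± 5.17 CPM (log2 1.05, SE 0.322, adjusted p = 0.0360). Libraries did not overlap for these 4 genes, as for 46% of all genes (22.3% higher and 23.6% lower). The XRCC5 call held in all 17 alternatives. The LIG4 call was lost with 6 of the 9 libraries left out singly (adjusted p up to 0.128), the NHEJ1 call with 4 (up to 0.109) and the XRCC4 call without siNFKB2 replicate 3 (0.0503). The count of members called was 2 without siNFKB2 replicate 2, 1 without siNFKB2 replicate 3 and 2 without siRELB replicate 2, where 14.4%, 17.1% and 15.2% of all genes were called.

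Other genes of end joining were read from lists chosen with earlier results of these data known. Among 13 end processing and accessory genes, 3 fell and 1 rose in siNFKB2, with a median of -0.04, where 13.5% of all genes tested were called lower and 12.6% higher, 26.1% together. That is near the share over all genes. TDP1, which removes protein remnants from ends, fell from 21.3 ± 0.0452 to 13.4 ± 0.0578 CPM (log2 -0.66, adjusted p = 0.00257). SETMAR (-0.55, adjusted p = 0.0244) and the polymerase POLB (-0.42, 0.0345) fell and IFFO1 (0.99, 0.00689) rose. None of the 13 was called in siRELB, where APLF was at a log2 fold change of 0.58 (adjusted p = 0.181).

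Of 14 tested genes of break sensing and pathway choice, 3 fell and 2 rose in siNFKB2, with a median of 0.23, beside the same 26.1% of all genes called (13.5% lower and 12.6% higher). SHLD2, a shieldin subunit that limits resection, rose (log2 0.70, adjusted p = 0.00499), while MAD2L2 of the same complex fell (-0.65, 0.00631). MRE11 fell (-0.41, adjusted p = 0.0327), whereas its partner NBN rose (0.47, 0.0425). SHLD1 was the third gene that fell (-0.78, adjusted p = 0.0438) and was named after its value was seen. None was called in siRELB, where MAD2L2 (-0.36, adjusted p = 0.223) and H2AFX (-0.67, 0.325) had the smallest adjusted p.

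Alternative end joining uses microhomology and does not need Ku. Of its 8 genes 2 fell in siNFKB2, with a median of -0.25, a count near the 26.1% of all genes called (13.5% lower). They were the replication ligase LIG1, from 99.2 ± 16.9 to 35.9 ± 4.08 CPM (log2 -1.47, adjusted p = 0.000398), and the flap nuclease FEN1 (-1.03, 0.000403). The microhomology polymerase POLQ (log2 -0.31, adjusted p = 0.200) and RBBP8 (-0.36, 0.192) did not pass. None of the 8 passed in siRELB, where POLQ was at -0.28 (adjusted p = 0.442) and FEN1 at -0.17 (0.506). Of the antigen receptor recombination genes RAG1, RAG2 and DNTT, only RAG1 was tested, at 0.743 ± 0.553 CPM in siNS and 0.557 ± 0.477 CPM in siNFKB2. Its log2 fold change against siNS was -0.39 in siNFKB2 and 1.03 in siRELB. Between the knockdowns it was -1.43, and none of these values was called.

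Of 9 protein relatives of the members, 2 fell in siNFKB2, LIG1 and the nuclease DCLRE1B (log2 -0.60, adjusted p = 0.0374), with a median of -0.24. This count too was near the 26.1% of all genes called (13.5% lower). The kinases MTOR (-0.36, adjusted p = 0.0696) and ATM (0.36, 0.116), of the family of PRKDC, were not called. In siRELB none of the 9 was called, with TRRAP (-0.18, adjusted p = 0.458) and ATR (-0.28, 0.461) at the smallest adjusted p.

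For scale, 17 of 28 tested genes of homologous recombination fell in siNFKB2, with a median of -0.72, and 0 of 28 were called in siRELB. Over all genes tested, 26.1% were called in siNFKB2 (13.5% lower) and 2.02% in siRELB. Of 20 S phase genes 19 fell (median -1.04), among them MCM3 (log2 -1.41), UHRF1 (-1.46), CDC45 (-1.09) and PCNA (-1.09), with adjusted p from 0.000253 to 0.000299. Of 18 genes of G2 and M phase 16 fell (median -0.74). In siRELB 0 of the 20 S phase genes and 1 of the 18, AURKA, were called. Whether these lists differ from the core end joining genes was not tested. Relative to the siNS mean, the S phase median was -0.74, -1.15 and -1.20 in siNFKB2 replicates 1 to 3, and XRCC5 was at -0.57, -1.20 and -1.21. The part of the cell cycle in the fall of XRCC5 was not tested.

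Genes most like each called member over the 9 libraries were found by Pearson correlation of log2 CPM among 10614 others. They share libraries, depth and groups, so these are descriptions. Closest to XRCC5 were NUDT3 (r = 0.999), IL13RA1 (0.998) and TMEM106C (0.997), with log2 fold changes in siNFKB2 of -1.09, -0.92 and -1.02. XRCC4 was most like TSEN15 (0.991), PRPS2 (0.991) and TNFAIP8 (0.989), and NHEJ1 most like KIAA1549 (0.987), FAM45A (0.985) and ELF4 (0.984). LIG4 was most like MED21 (0.987), UBE2V1 (0.977) and ITGA1 (0.967). Among the members themselves, XRCC5 correlated with NHEJ1 at 0.959 and with XRCC4 at 0.910, but with LIG4 at -0.345 and with its partner XRCC6 at 0.639, over 9 libraries.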

How the data were processed

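Poly(A) RNA of 9 U2OS libraries was sequenced. The authors deposited whole-number read counts per gene symbol, 1 table per library, not normalized. The submitters' processing notes list Trimmomatic 0.38, STAR 2.7.1a, Subread 1.6.4 and GRCh38.p13. Settings, annotation and strand use: not given in the sources used here. Of the 44608 entries, 5005 are further placements of a symbol and were kept apart. The precision rests on the counts and on the spread between libraries of a group.

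From these counts, filterByExpr of edgeR 4.0.16 (R 4.3.3) kept 14815 genes, TMM scaled the libraries, and a single fit of the 3 group means covered the 9 libraries. Each contrast was tested by quasi-likelihood, p-values were adjusted by Benjamini-Hochberg across the 14815 genes, and genes below 0.05 were called. The SE is the absolute log2 fold change over the square root of F. Ratios within a library used exact permutation tests. For siNFKB2 against siNS, the fit was tested on simulated data of 14593 genes. It called 78% of 100 genes changed by 1 and 5% of 100 changed by 0.5 on the log2 scale. DESeq2 1.42.0, other scaling and filters, a replicate block and left-out libraries were alternatives. Same-numbered libraries of siNFKB2 and siRELB deviated together (r = 0.52, 0.15 and 0.43 for numbers 1 to 3), a pairing read from the data, not the labels. For number 2 that value was below the r of 0.24 between siNFKB2 replicate 3 and siRELB replicate 2. With the replicate block the comparison of siNFKB2 with siRELB called 6054 genes in place of 3934.

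All 8 members, NFKB2 and RELB were named, with up to 4 genes of each other list by adjusted p in siNFKB2 and up to 2 in siRELB, and the 3 genes most like each called member. Of the recombination and cell cycle lists only some of these are printed. Some genes that this rule or the marker lists name are not reported here. Members and lists were chosen with earlier results of these data known. Positions and lengths are from GENCODE 29, and the counts may rest on another annotation.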

Additional observations from a re-analysis of the deposited data

Results flagged for a closer look

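For 4 members the effects of the knockdowns differed by the direct test between siNFKB2 and siRELB (edgeR, adjusted over all genes). XRCC5 was lower by all libraries, at a log2 fold change of -0.94 (adjusted p = 0.00263). XRCC4 was at -0.63 (0.00920) and NHEJ1 at -0.58 (0.0254), again with every siNFKB2 library below every siRELB library. LIG4 went the other way, at 1.05 (0.0360), with every siNFKB2 library above every siRELB library. Over all genes tested 26.6% were called in this comparison, and for 46% the libraries did not overlap. Of 17 alternatives the LIG4 call was lost in 6, the NHEJ1 call in 4 and the XRCC4 call in 1. LIG4 was not called in the edgeR test of any difference among the 3 groups (adjusted p = 0.0729).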

How the results depend on the processing

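With the replicate block 5944 genes (40.1% of those tested) were called in siNFKB2 against siNS. In siRELB against siNS 1570 (10.6%) were called, and between the knockdowns 6054 (40.9%). Of the 8 members 2, LIG4 and PAXX, were called in siRELB. The pairing check gave r = 0.56, 0.045 and 0.088 for numbers 1 to 3 of siNFKB2 and siNS, and 0.57, 0.34 and 0.043 for siRELB and siNS, so by these values not every number pairs the libraries. Those numbered 1 deviated together, and what the numbers mark is not stated in the labels. The block also called PAXX in siNFKB2, which made 4 of the 8 members there, where 40.1% of all genes were called. It changed no other member's call. Pairing by number cannot change the mean XRCC5 to XRCC6 log2 difference (-0.88, -0.92 between the knockdowns and 0.04 in siRELB), because every library has a partner. In a paired exact permutation test p was 0.25 for siNFKB2 against siNS and between the knockdowns, the smallest that 3 pairs can give. It was 0.5 for siRELB against siNS. Without the 3 libraries numbered 1, chosen after seeing the data, the counts of genes were 6711 (44.9%), 3390 (22.7%) and 6600 (44.1%). In that setting 2 of the 8 members were called in siRELB, near the share over all genes. With only the 6 libraries compared, 1 of 8 members was called in siNFKB2, where 18.5% of all genes were, and 129 genes in siRELB. DESeq2 called 813 genes (6.01%) in siRELB.

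With 1 library left out the counts of genes ranged from 2220 to 4895, from 15 to 1819 and from 2188 to 4917, in the same order. These were 14.6% to 32.3%, 0.0986% to 12% and 14.4% to 32.4% of genes tested. Of the 8 members, the counts ranged from 1 to 3, from 0 to 1 and from 1 to 4. Fewer libraries were fitted in these settings.

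Of 408 member values under alternatives, 358 kept their direction and side of the threshold, 23 lost and 9 gained a call, and 18 changed sign, none of them called. With 1 library left out, values that changed sign ranged in siNFKB2 from -0.30 to 0.041 for PRKDC and from -0.16 to 0.077 for DCLRE1C, in siRELB from -0.064 to 0.029 for XRCC5, from -0.16 to 0.17 for PRKDC and from -0.037 to 0.15 for NHEJ1, and between the knockdowns from -0.12 to 0.039 for XRCC6 and from -0.35 to 0.22 for PAXX. Without the 3 libraries numbered 1 they were 0.075 for DCLRE1C in siNFKB2, 0.0020 for XRCC5, 0.074 for PRKDC and -0.0024 for NHEJ1 in siRELB, and 0.015 for PAXX between the knockdowns. The cause was not tested. The median of all genes moved by less than 0.1 with the other scaling. The simulated fit rarely called changes of 0.5 on the log2 scale, but only 100 genes were changed by 0.5 and 100 by 1. In the real data 3869 genes were called in siNFKB2 against siNS. With few genes changed the adjusted threshold is stricter, so the simulated recovery does not measure that of the real comparison. An uncalled member may still differ.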

Other observations

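In GENCODE 29, 4 of the 8 members have a protein-coding neighbour on the opposite strand whose start lies within 1000 bases of their own. These genes were chosen by position. PRKDC and MCM4, a subunit of the replicative helicase, start 2 bases apart on opposite strands. MCM4 was lower in siNFKB2 (log2 -0.94, adjusted p = 0.000771), while PRKDC was at -0.16 (0.541). The ratio of PRKDC to MCM4 counts was 2.14, 1.69 and 1.601 (replicates 1 to 3 of siNS), 3.12, 3.29 and 2.96 (siNFKB2) and 2.09, 1.80 and 1.81 (siRELB). The siNFKB2 libraries did not overlap the others (log2 difference from siNS 0.80, exact permutation p = 0.1, n = 3, the smallest possible), and siRELB differed from siNS by 0.08 (exact permutation p = 0.6, n = 3). The neighbours of XRCC6 (DESI1, log2 0.33, adjusted p = 0.0844), LIG4 (ABHD13, 0.31, 0.348) and XRCC4 (TMEM167A, -0.39, 0.222) were not called in siNFKB2. Between the knockdowns TMEM167A was lower in siNFKB2 (-0.67, adjusted p = 0.0487), as XRCC4 was. TMEM167A starts inside XRCC4, so these gene bodies overlap and the pair is not divergent.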
